A study of Mus musculus with 12 samples.

Results

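Semaphorins, plexins and neuropilins, a family of guidance cues and their receptors, were described in mouse bone marrow cells grown in GM-CSF, a cytokine that drives myeloid growth. A member was any gene with a single symbol in the platform annotation that begins with Sema3 to Sema7, Plxna, Plxnb, Plxnc or Plxnd, or is Nrp1 or Nrp2. These were 31 of the 19938 genes measured: 20 semaphorins, 9 plexins and 2 neuropilins. RNA was measured on Affymetrix Mouse Gene 1.0 arrays, 1 array per sample, and all values are on the log2 expression scale of the authors' deposited table. The 12 arrays fell into 4 groups of 3: dendritic cells (GM-DC) after LPS, unstimulated GM-DC, macrophages (GM-MF) after LPS and unstimulated GM-MF. Marrow of leg bones of C57B/6 mice had been grown for 6 days with 20 ng/ml GM-CSF in all groups, and LPS, a bacterial ligand of Toll-like receptor 4, was given at 10 ng/ml for 4 hours. No genetic change is named in any group. The labels do not say how the cell types were separated, how old the mice were or whether the replicates are separate cultures or animals, so a p-value here covers only array-to-array spread, possibly technical.

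Semaphorins are secreted or membrane-bound proteins that were found as guides of growing axons and that also act on immune cells. Plexins are their main receptors and act on the cytoskeleton and on integrins through small GTPases. Neuropilins are co-receptors with short cytoplasmic tails that bind secreted class 3 semaphorins together with A-type plexins, and that also bind vascular endothelial growth factors. In dendritic cells members of the family are known for roles in the contact with T cells and in migration through vessel walls, and in macrophages for roles in recruitment and cytokine release.

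Members of the family differed in level between GM-DC and GM-MF. The membrane semaphorins Sema7a, Sema6d, Sema4f and Sema4c, the secreted Sema3f and the receptors Plxnc1 and Plxnd1 were higher in GM-DC both with and without LPS. The membrane semaphorins Sema4d and Sema4b, the secreted Sema3c, the receptor Plxna1 and both neuropilins were lower in GM-DC in both states. With LPS Sema6d, Sema4b, Sema4d, Sema4a, Plxnd1, Plxnc1 and Nrp1 fell in GM-MF and Sema7a rose in GM-DC, calls that held under every alternative run. A second probe set of Sema4d, not kept, showed no fall in GM-MF. Other LPS calls rested on single arrays or settings, as given below.

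Csf1r, the receptor of a macrophage growth factor, was lower in GM-DC than in GM-MF (log2 -4.64 ± 0.12 without LPS, where ± is the standard error of the fit) and Zbtb46, a transcription factor of classical dendritic cells, was higher (2.11 ± 0.12). Among 10 dendritic cell markers 8 were higher and 1 was lower in GM-DC in either state, and all 9 measured macrophage markers were lower. Il6, an inflammatory cytokine, rose with LPS in GM-DC (1.98 ± 0.29) and in GM-MF (6.21 ± 0.29). No array stood apart over all probe sets, the mean correlation with the other arrays of its group running from 0.989 to 0.991. Within the family both GM-DC arrays numbered 3 lay at the same end of their groups for 16 of 31 members. They were lowest for 5, among them Nrp1, Nrp2 and Plxna1, and highest for 11. The next most frequent, number 2 of GM-MF, did so for 14 members. Such counts were not made over all genes, so the pattern cannot be called particular to the family. Differences between the cell types are given below over all arrays, and those that passed kept their direction and their calls without both of these GM-DC arrays. The cells were measured in bulk, so fewer cells of a type and less RNA per cell cannot be told apart.

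To show regulatory sequence, the promoter windows of Sema7a and Nrp1 are printed, the members with the largest positive and negative difference between the cell types. Windows of Plxnc1 and Sema4c, both higher in GM-DC, are printed as examples that hold motif matches. Several members that are not printed differed more than Sema4c. The windows run from 250 bases before to 50 bases after a gene's start, come from RefSeq on GRCm38.p6 and are written 5′ to 3′ on the strand of the gene. A window was found for 26 of the 31 members, 37 windows in all, since some genes have several starts, and the arrays do not tell which start was used. Capitals mark letters that match 1 of 5 motifs searched on both strands: 2 NF-kB-like ones (GGGA, any 2 bases and TTCC, or GGGAA, any 3 bases and CC), the interferon-response-like GAAA, any 2 bases and GAAA, the AP-1-like TGANTCA and the PU.1-like AGAGGAAGT.
Sema7a, chr9:57939862-57940161, plus strand: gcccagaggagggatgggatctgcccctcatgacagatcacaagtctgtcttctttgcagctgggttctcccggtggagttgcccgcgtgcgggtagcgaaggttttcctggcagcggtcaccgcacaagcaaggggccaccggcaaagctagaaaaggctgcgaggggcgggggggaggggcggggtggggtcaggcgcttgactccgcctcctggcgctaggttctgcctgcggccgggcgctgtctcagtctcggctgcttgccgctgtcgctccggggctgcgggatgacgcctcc
Nrp1, chr8:128358823-128359122, plus strand: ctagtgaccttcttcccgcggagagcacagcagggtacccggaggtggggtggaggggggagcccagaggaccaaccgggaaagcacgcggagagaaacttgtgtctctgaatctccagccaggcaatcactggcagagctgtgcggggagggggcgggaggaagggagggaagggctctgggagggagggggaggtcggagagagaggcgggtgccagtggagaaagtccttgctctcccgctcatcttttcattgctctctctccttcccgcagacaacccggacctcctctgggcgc
Plxnc1, chr10:94944796-94945095, minus strand: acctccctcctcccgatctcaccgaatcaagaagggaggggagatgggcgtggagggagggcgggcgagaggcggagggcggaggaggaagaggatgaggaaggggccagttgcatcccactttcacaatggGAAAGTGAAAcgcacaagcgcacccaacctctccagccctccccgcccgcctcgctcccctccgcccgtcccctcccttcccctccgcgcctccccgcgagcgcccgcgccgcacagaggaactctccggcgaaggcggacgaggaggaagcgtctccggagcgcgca
Sema4c, chr1:36558332-36558631, minus strand: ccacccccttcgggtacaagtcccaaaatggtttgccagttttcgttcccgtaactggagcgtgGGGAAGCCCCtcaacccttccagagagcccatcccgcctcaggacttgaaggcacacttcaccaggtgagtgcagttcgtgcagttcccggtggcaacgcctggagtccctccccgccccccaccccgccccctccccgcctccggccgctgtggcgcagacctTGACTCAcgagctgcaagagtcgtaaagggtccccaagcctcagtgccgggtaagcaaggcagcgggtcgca
The window of Plxnc1 holds 1 match to the interferon-response-like motif, its first base at -118 from the start. The window of Sema4c at its upstream start holds 1 match to the second NF-kB-like motif at -186 and 1 to the AP-1-like motif at -22. The second NF-kB-like motif occurred in 3 of the 37 family windows (8.11%), against 5.78% of all 32851 windows. The interferon-response-like motif occurred in 2 (5.41%), against 3.44%, and the AP-1-like motif in 3 (8.11%), against 7.81%. Counts this small do not set the family apart from all windows. The first NF-kB-like motif and the PU.1-like motif occurred in 0 family windows, against 1.47% and 1.00% of all windows. The NF-kB-like motifs can match the same bases. The windows of Sema7a and Nrp1 hold none of these motifs, nor does the other window of Sema4c. Matches also lay in windows of Sema4d and Sema6b, both lower in GM-DC without LPS. Further ones lay in windows of Plxnb2 and Sema6c, which passed in no comparison. The AP-1-like motif lay in 1 of 8 windows of members higher in GM-DC without LPS, and in 2 of 10 of members lower. A match is a description of letters and not a binding site.

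Setting GM-DC against GM-MF asks how dendritic cells and macrophages of 1 kind of culture differ. Without LPS 15 of 31 members passed (48.4%, adjusted p under 0.05), 8 higher and 7 lower in GM-DC, against 34.2% of all genes. The shares of all genes were 18.0% higher and 16.2% lower. At least 2-fold apart were 11 members, 6 up and 5 down in GM-DC, against 12.7% of all genes (5.69% up and 7.02% down). With LPS 14 of 31 passed (45.2%), 8 higher and 6 lower, against 36.3% of all genes (20.9% higher and 15.4% lower). At least 2-fold apart were 13 members, 8 up and 5 down in GM-DC, against 12.9% of all genes (6.40% up and 6.50% down). The median absolute log2 difference of the family was 0.42 without and 0.37 with LPS, against 0.20 and 0.21 over all genes, and its median signed difference was -0.05 and -0.03. Of the members 13 passed in both states, each in the same direction, against 26.3% of all genes. They were 7 higher and 6 lower in GM-DC, against 14.7% and 11.7% of all genes.

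**Figure D1:**
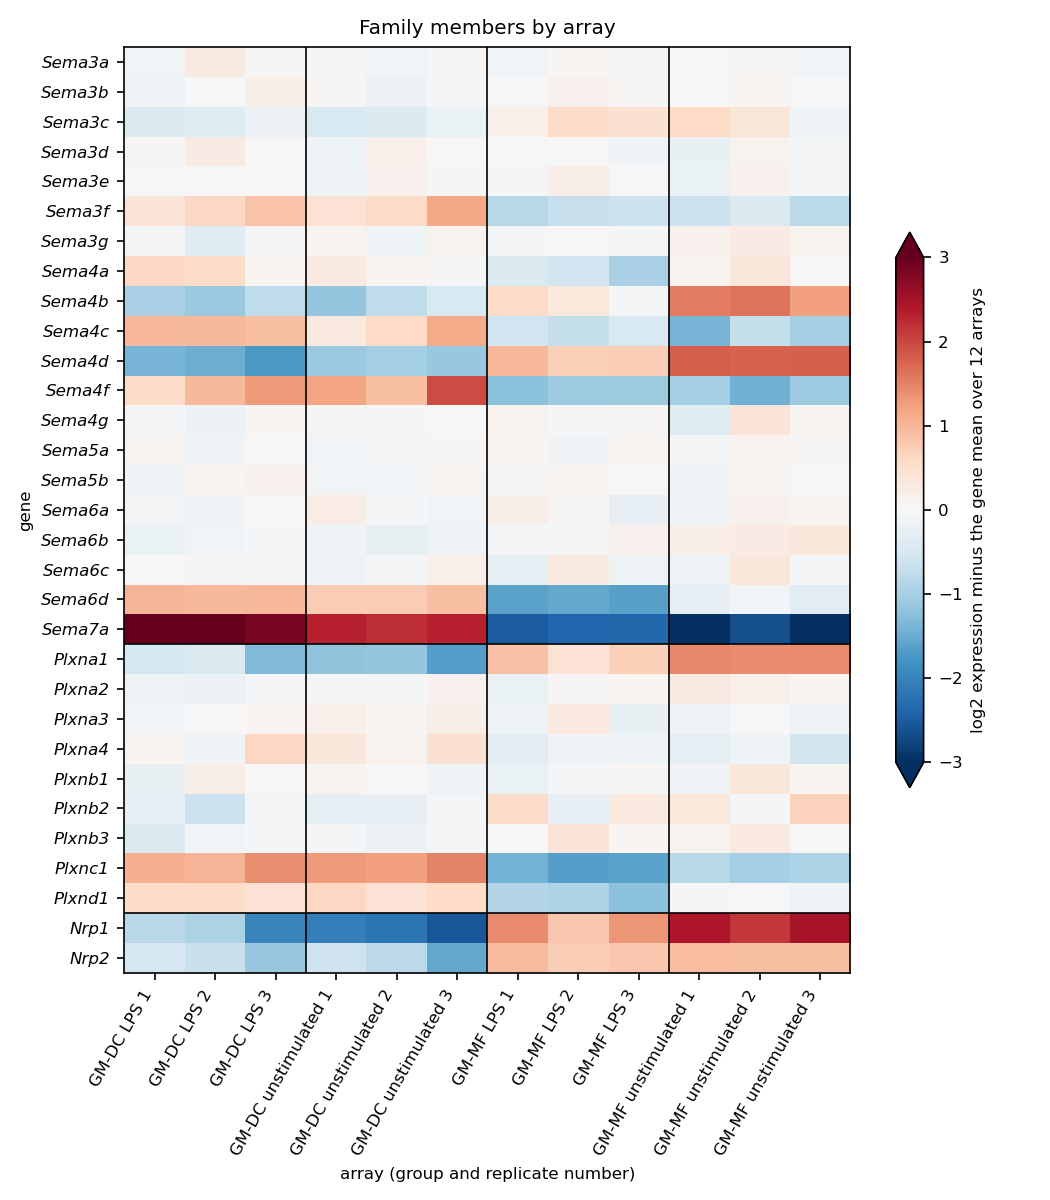
Log2 expression of the 31 members (rows) on the 12 arrays (columns), each minus the gene's mean over all arrays, red for higher and blue for lower, with colours capped at 3 in either direction. Sema7a and Nrp1 show the widest contrast between the 6 GM-DC columns on the left and the 6 GM-MF columns on the right, and rows such as Sema3e and Sema5a stay near 0.

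Among the ligands, Sema7a, the only semaphorin held to the membrane by a glycolipid anchor and a ligand of Plexin-C1 and of integrin alpha1 beta1, differed most. Without LPS its arrays read 10.01, 9.89 and 10.02 in GM-DC, against 4.52, 5.05 and 4.67 in GM-MF. With LPS they read 10.78, 10.87 and 10.53 in GM-DC, against 5.18, 5.31 and 5.33 in GM-MF. Every GM-DC array lay far above every GM-MF array, and the GM-MF arrays of Sema7a sat much nearer to the array medians of 4.41 to 4.54. The difference was 37.5-fold without LPS (log2 5.23 ± 0.13, adjusted p = 5.69e-13) and 43.9-fold with it (log2 5.46 ± 0.13, adjusted p = 8.6e-13). No background call could be made, so the lower level is a signal and not a measured absence.

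Sema6d, a transmembrane ligand of Plexin-A1, was also higher in GM-DC. Unstimulated arrays gave 9.66, 9.66 and 9.79 in GM-DC, against 8.64, 8.79 and 8.54 in GM-MF. After LPS the values were 9.91, 9.87 and 9.88 in GM-DC, against 7.28, 7.36 and 7.26 in GM-MF. The groups did not overlap in either state, and their distance was wider after LPS. The log2 difference was 1.05 ± 0.10 without LPS (adjusted p = 3.27e-07) and 2.59 ± 0.10 with LPS (adjusted p = 1.59e-11).

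Class 4 semaphorins, which are transmembrane proteins, were split. Sema4f, best known from nervous tissue, read 6.30, 6.02 and 7.09 in unstimulated GM-DC, against 4.12, 3.69 and 4.03 in unstimulated GM-MF. Its values after LPS were 5.71, 6.10 and 6.40 in GM-DC, against 3.91, 4.06 and 4.06 in GM-MF. All 6 GM-MF values lay under the array medians, so the distance of 5.77-fold without LPS (2.53 ± 0.23, adjusted p = 2.93e-07) and 4.17-fold with LPS (2.06 ± 0.23, adjusted p = 2.64e-06) rests on a low signal. Sema4c, a ligand of Plexin-B2, had 6.06, 6.37 and 6.89 in unstimulated GM-DC, against 4.38, 5.06 and 4.77 in unstimulated GM-MF. With LPS it had 6.76, 6.74 and 6.68 in GM-DC, against 5.17, 5.05 and 5.30 in GM-MF. GM-DC were higher with no overlap (1.71 ± 0.19 without LPS, adjusted p = 2.71e-06, and 1.55 ± 0.19 with LPS, adjusted p = 7.16e-06).

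Sema4d and Sema4b went the other way. Sema4d, also called CD100, is a ligand of Plexin-B1 and of CD72 and can be shed from the surface. Its values were 6.79, 6.88 and 6.76 in unstimulated GM-DC, against 9.72, 9.66 and 9.70 in unstimulated GM-MF. After LPS they were 6.51, 6.44 and 6.19 in GM-DC, against 8.89, 8.62 and 8.64 in GM-MF. The gap of 7.38-fold without LPS (-2.88 ± 0.11, adjusted p = 1.85e-11) and 5.07-fold with LPS (-2.34 ± 0.11, adjusted p = 1.98e-10) exceeded the spread in every group. A second probe set of Sema4d, which was not kept because its mean was lower, showed a smaller gap in the same direction, -0.43 without and -0.39 with LPS. With the mean of both probe sets the difference was -1.66 without LPS (adjusted p = 2.6e-09) and -1.36 with LPS (adjusted p = 2.4e-08). Sema4b read 5.16, 5.56 and 5.84 in unstimulated GM-DC, against 7.85, 7.94 and 7.55 in unstimulated GM-MF. With LPS the values were 5.33, 5.18 and 5.54 in GM-DC, against 6.87, 6.63 and 6.24 in GM-MF. Sema4b was lower in GM-DC on every array, by 4.78-fold without LPS (-2.26 ± 0.18, adjusted p = 9.61e-08) and 2.35-fold with LPS (-1.23 ± 0.18, adjusted p = 6.14e-05).

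Sema4a, a ligand that dendritic cells use in the priming of T cells, parted the cell types after LPS. Unstimulated arrays read 10.02, 9.84 and 9.69 in GM-DC, against 9.86, 10.08 and 9.74 in GM-MF, and the groups overlapped. The difference was -0.05 ± 0.17 (adjusted p = 0.885, 95% interval -0.40 to 0.31). With LPS the arrays read 10.38, 10.30 and 9.84 in GM-DC, against 9.32, 9.17 and 8.77 in GM-MF. GM-DC were then higher without overlap (1.09 ± 0.17, adjusted p = 7.35e-05), and the difference of the LPS responses itself passed (1.13 ± 0.23, adjusted p = 0.00668).

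Class 3 semaphorins are secreted and mostly need a neuropilin to act. Sema3f, a ligand that uses neuropilin-2, had 6.40, 6.54 and 7.13 in unstimulated GM-DC, against 5.32, 5.54 and 5.15 in unstimulated GM-MF. With LPS it had 6.36, 6.58 and 6.83 in GM-DC, against 5.14, 5.29 and 5.32 in GM-MF. It was higher in GM-DC on every array, by 1.36 ± 0.17 without LPS (adjusted p = 1.31e-05) and 1.34 ± 0.17 with LPS (adjusted p = 1.38e-05). Sema3c, a ligand of both neuropilins and of Plexin-D1, was lower in GM-DC, with means of 3.39 ± 0.14 for GM-DC and 4.02 ± 0.37 for GM-MF without LPS (SD, n = 3 each, as for all group means below). The log2 difference was -0.63 ± 0.16 (adjusted p = 0.0065). With LPS the means were 3.42 ± 0.14 for GM-DC and 4.13 ± 0.20 for GM-MF (-0.71 ± 0.16, adjusted p = 0.00266). All 12 Sema3c values lay under the array medians. Sema6b, a transmembrane ligand of A-type plexins, was lower in GM-DC without LPS, with means of 4.93 ± 0.05 for GM-DC and 5.35 ± 0.074 for GM-MF (-0.42 ± 0.09, adjusted p = 0.00206). It did not pass with LPS (-0.12 ± 0.09, adjusted p = 0.385), nor did the difference of its LPS responses (0.30 ± 0.13, adjusted p = 0.23).

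**Figure D2:**
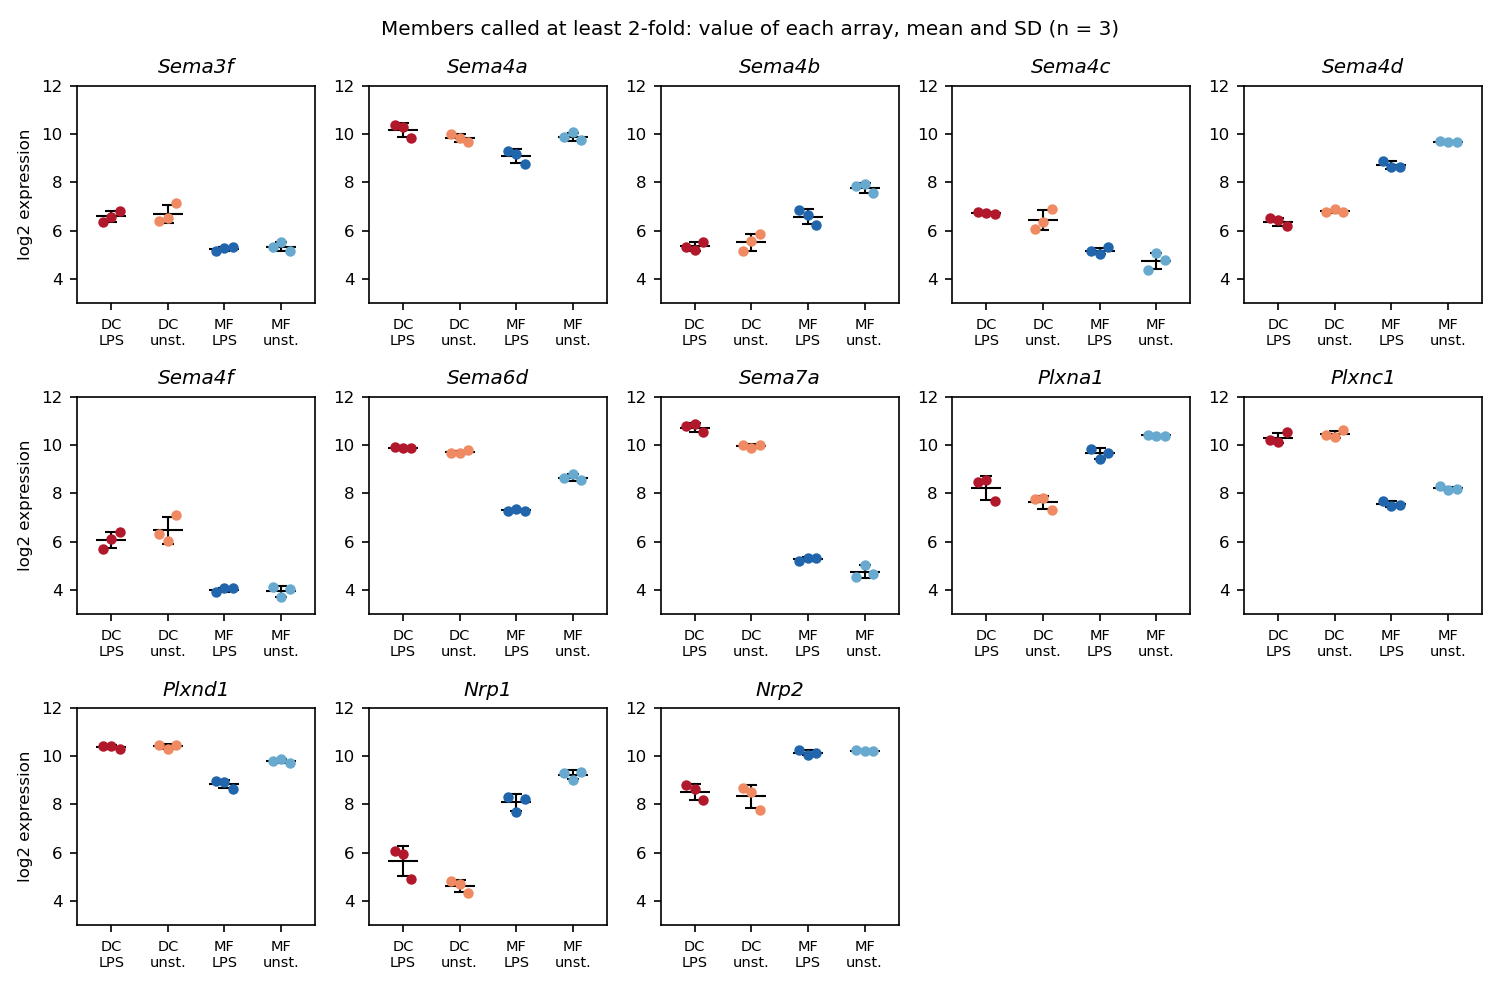
Log2 expression of the 13 members that passed with a difference of at least 2-fold in any comparison, by group. Each point is 1 array, and the bars give the mean and SD of 3 arrays. The points of GM-DC and GM-MF do not overlap with LPS in any panel, and without LPS they overlap for Sema4a.

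Of the receptors, Plxnc1, the plexin that binds Sema7a, was higher in GM-DC. Its values without LPS were 10.41, 10.35 and 10.63 in GM-DC, against 8.29, 8.14 and 8.18 in GM-MF. With LPS they were 10.20, 10.15 and 10.53 in GM-DC, against 7.71, 7.48 and 7.52 in GM-MF. GM-DC lay 4.78-fold higher without LPS (2.26 ± 0.12, adjusted p = 7.59e-10) and 6.61-fold higher with LPS (2.72 ± 0.12, adjusted p = 1.05e-10), and no array broke this order. Plxnc1 and its ligand Sema7a were thus both higher in GM-DC.

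Plxnd1, the receptor of Sema3e, read 10.48, 10.30 and 10.47 in unstimulated GM-DC, against 9.82, 9.88 and 9.73 in unstimulated GM-MF. After LPS it read 10.42, 10.41 and 10.29 in GM-DC, against 8.98, 8.93 and 8.64 in GM-MF. Its distance was under 2-fold without LPS (0.61 ± 0.11, adjusted p = 0.000326) and larger with it (1.53 ± 0.11, adjusted p = 1.98e-08), the change of distance passing as well (0.92 ± 0.15, adjusted p = 0.0014). Sema3e, which is not the only ligand of Plxnd1 in the family, stayed between 2.67 and 3.07 on all 12 arrays, under the array medians.

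Plxna1, the A-type plexin that serves Sema6d directly and Sema3a together with neuropilin-1, was lower in GM-DC. Unstimulated arrays gave 7.77, 7.82 and 7.32 in GM-DC, against 10.42, 10.40 and 10.39 in GM-MF. With LPS they gave 8.46, 8.56 and 7.67 in GM-DC, against 9.85, 9.42 and 9.70 in GM-MF. The number 3 array was the lowest of both GM-DC groups, and every GM-DC array lay under every GM-MF array. The difference was -2.77 ± 0.20 without LPS (adjusted p = 2.56e-08) and -1.43 ± 0.20 with LPS (adjusted p = 3.24e-05). Plxna4, a further A-type plexin, was higher in GM-DC without LPS, with means of 4.41 ± 0.17 for GM-DC and 3.80 ± 0.22 for GM-MF (0.61 ± 0.17, adjusted p = 0.0101). That call was lost without GM-MF unstimulated replicate 3 (adjusted p = 0.0577), and with LPS Plxna4 did not pass (0.37 ± 0.17, adjusted p = 0.111) unless GM-DC LPS replicate 2 was left out (0.52, adjusted p = 0.0316).

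Both neuropilins were lower in GM-DC. Nrp1, the co-receptor of Sema3a and of VEGF-A, read 4.84, 4.70 and 4.35 in unstimulated GM-DC, against 9.32, 9.03 and 9.36 in unstimulated GM-MF. With LPS it read 6.06, 5.96 and 4.93 in GM-DC, against 8.32, 7.70 and 8.23 in GM-MF. The unstimulated GM-DC values of Nrp1 sat about the array medians, 1 of them under its array's median, so the lower level may not be above background and the folds rest on a low signal. The distance of 24.3-fold without LPS (-4.61 ± 0.25, adjusted p = 9.78e-10) narrowed to 5.41-fold with LPS (-2.43 ± 0.25, adjusted p = 1.27e-06), still with no overlap. Nrp2, the co-receptor of Sema3f and of VEGF-C, read 8.70, 8.52 and 7.79 in unstimulated GM-DC, against 10.25, 10.22 and 10.20 in unstimulated GM-MF. Its values with LPS were 8.81, 8.64 and 8.17 in GM-DC, against 10.27, 10.06 and 10.13 in GM-MF. The GM-MF arrays of Nrp2 were tightly grouped and the GM-DC arrays spread over more than 0.6, with number 3 lowest in both groups. The difference was -1.89 ± 0.20 without LPS (adjusted p = 1.69e-06) and -1.62 ± 0.20 with LPS (adjusted p = 8.46e-06), and -1.61 and -1.43 without both GM-DC arrays numbered 3.

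Neuropilins are also known from vessels, so endothelial markers were read beside them. The mean log2 level of 6 endothelial markers was 3.60 to 3.88 in GM-DC with LPS and 5.07 to 5.32 in GM-MF with LPS. Without LPS it was 3.57 to 3.67 in GM-DC and 5.04 to 5.06 in GM-MF. Kdr, Cdh5 and Vwf were lower in GM-DC in both states, while Pecam1, Tek and Emcn lay under the array medians on all 12 arrays. The part of these markers in the neuropilin result was not tested.

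**Figure D3:**
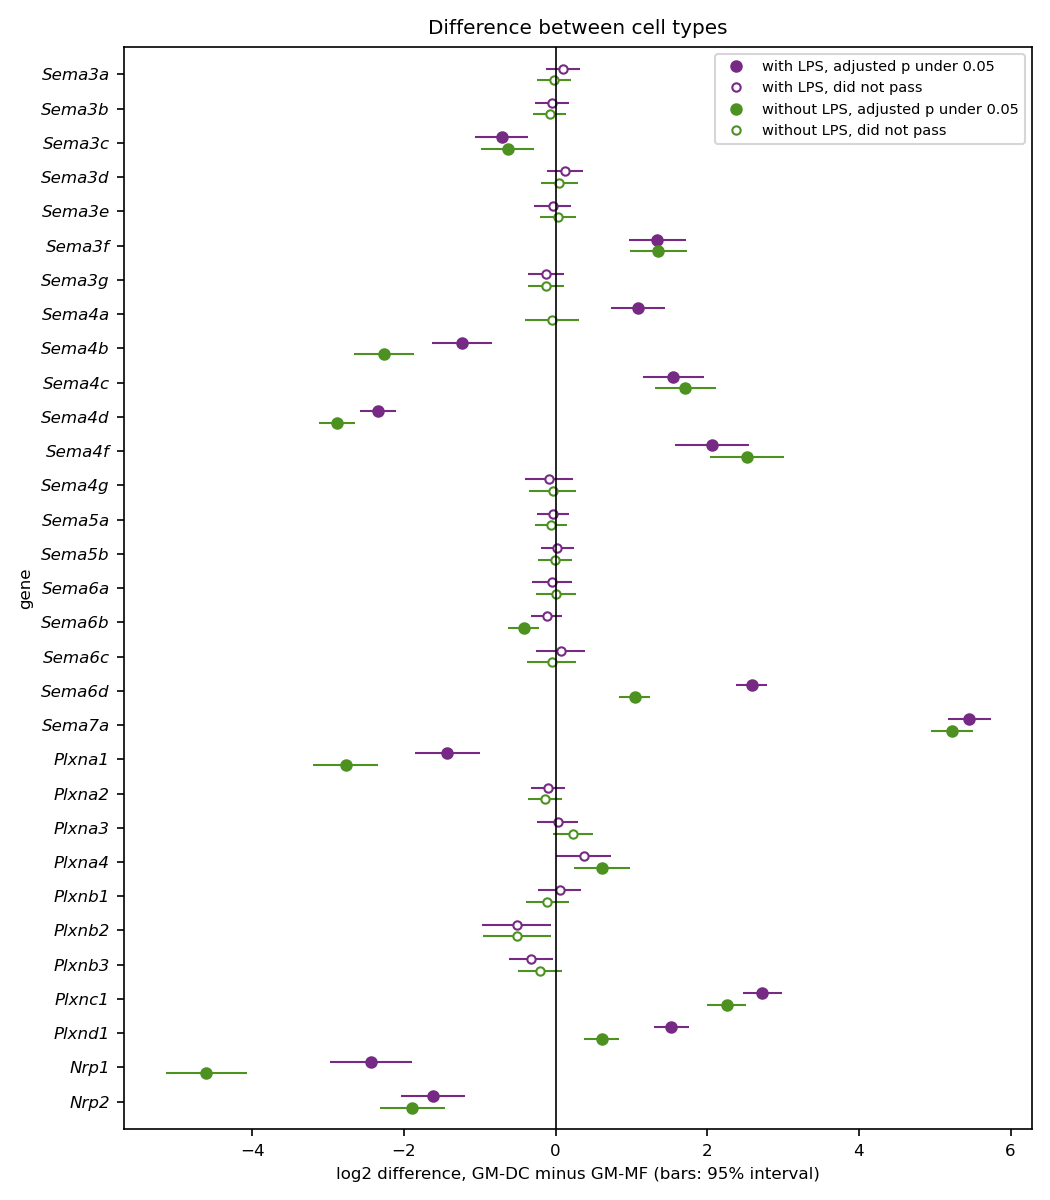
Log2 difference of GM-DC minus GM-MF for each member, with LPS (upper of each pair) and without, with 95% intervals of the limma fit. Filled points passed at an adjusted p under 0.05. Sema7a lies farthest right, above 5 in both states, and Nrp1 farthest left without LPS at -4.61.

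The other 15 members passed in none of the 5 comparisons. They were Sema3a, Sema3b, Sema3d, Sema3e, Sema3g, Sema4g, Sema5a, Sema5b, Sema6a, Sema6c, Plxna2, Plxna3, Plxnb1, Plxnb2 and Plxnb3. Their values ran from 2.45 to 5.95 over all arrays and their differences from -0.51 to 0.23. The widest was that of Plxnb2, a receptor of class 4 semaphorins, with means of 4.94 ± 0.30 for GM-DC and 5.45 ± 0.41 for GM-MF with LPS (-0.51 ± 0.21, adjusted p = 0.0771, 95% interval -0.96 to -0.06). Plxnb2 passed, lower in GM-DC, when GM-MF LPS replicate 2 was left out (-0.74 with LPS, adjusted p = 0.012, and -0.51 without LPS, adjusted p = 0.0458). It also passed with LPS without GM-DC LPS replicate 3 (-0.65, adjusted p = 0.0443), and without LPS when GM-MF unstimulated replicate 2 was left out (-0.69, adjusted p = 0.0251). Among the other settings it passed with LPS after cyclic loess (-0.62, adjusted p = 0.047) and without LPS in a fit on only the groups compared (adjusted p = 0.047). Plxnb3 was lower in GM-DC with LPS after median centring (-0.38, adjusted p = 0.027) and cyclic loess (-0.34, adjusted p = 0.0306). Plxnb1, the high-affinity receptor of Sema4d, averaged 4.61 ± 0.11 in GM-DC and 4.72 ± 0.22 in GM-MF without LPS (-0.11 ± 0.13, adjusted p = 0.617, 95% interval -0.39 to 0.17). Of these 15, 10 lay under the array medians on all 12 arrays.

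The LPS response was compared within each cell type. In GM-DC 3 of 31 members passed (9.68%), 2 higher and 1 lower with LPS, against 9.72% of all genes (5.23% higher and 4.49% lower). Nrp1 alone changed at least 2-fold, upward, against 2.08% of all genes (1.65% up and 0.431% down). In GM-MF 9 of 31 passed (29.0%), 1 higher and 8 lower with LPS, against 17.4% of all genes. Among all genes 6.54% were higher and 10.8% lower. In GM-MF 3 members, Sema6d, Sema4b and Nrp1, changed at least 2-fold, each downward, against 3.17% of all genes (1.80% up and 1.37% down). The median change of the family was 0.00 in GM-DC and -0.07 in GM-MF, against -0.01 and -0.02 over all genes. The differences between cell types given above use the same arrays and are not independent of these responses.

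Among the ligands, Sema7a was the one member that rose in both cell types. LPS raised it by 0.76 ± 0.13 in GM-DC (adjusted p = 0.00148) and by 0.53 ± 0.13 in GM-MF (adjusted p = 0.011), with no overlap between stimulated and unstimulated arrays in either. The difference of these responses did not pass (0.23 ± 0.19, adjusted p = 0.621, 95% interval -0.17 to 0.63). The call in GM-MF was lost without GM-MF unstimulated replicate 1 (adjusted p = 0.0631), which left 0 members higher there. Without GM-MF unstimulated replicate 2, Sema4c joined Sema7a (0.60, adjusted p = 0.0491). The mean level of the 10 dendritic cell markers was also higher in GM-MF with LPS, 7.47 to 7.90, than in GM-MF without it, 6.86 to 7.31, and 5 of the 10 rose (Ccr7, Fscn1, Ccl22, Cd83 and Zbtb46) while Batf3 fell (-0.68 ± 0.14). The part of that shift in the Sema7a result was not tested.

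The membrane semaphorins Sema6d, Sema4b, Sema4d and Sema4a fell in GM-MF. Sema6d fell to a mean of 7.30 ± 0.054 with LPS, against 8.66 ± 0.13 without it (-1.36 ± 0.10, adjusted p = 1.79e-07). Sema4b fell to 6.58 ± 0.32, against 7.78 ± 0.20 (-1.20 ± 0.18, adjusted p = 0.000292), and Sema4d to 8.72 ± 0.15, against 9.69 ± 0.027 (-0.97 ± 0.11, adjusted p = 1.78e-05). Sema4a fell to 9.09 ± 0.29, against 9.90 ± 0.17 (-0.81 ± 0.17, adjusted p = 0.00278). In none of these 4 did the stimulated and unstimulated GM-MF arrays overlap in the probe set kept. The second probe set of Sema4d did not fall in GM-MF, reading 5.71, 5.80 and 5.60 with LPS, against 5.54, 5.72 and 5.80 without it. With the mean of both probe sets the fall of Sema4d was smaller (-0.48, adjusted p = 0.00277). Of the 9 macrophage markers 4 also fell with LPS in GM-MF, Csf1r (-0.93 ± 0.12), C1qa (-0.74 ± 0.16), C1qc (-0.54 ± 0.12) and C1qb (-0.45 ± 0.12), and Mertk rose (0.97 ± 0.16). Their mean level was 9.82 to 9.98 in GM-MF with LPS and 9.97 to 10.15 in GM-MF without it. The part of this shift in the falls of family members in GM-MF was not tested.

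In GM-DC 3 of these ligands did not pass. Sema6d changed by 0.18 ± 0.10 (adjusted p = 0.32), Sema4a by 0.32 ± 0.17 (adjusted p = 0.317) and Sema4b by -0.17 ± 0.18 (adjusted p = 0.746). Sema4d fell in GM-DC too (-0.43 ± 0.11, adjusted p = 0.0194), to 6.38 ± 0.17, against 6.81 ± 0.066 without LPS. That call was lost with the mean of both Sema4d probe sets (-0.19, adjusted p = 0.338), without GM-DC LPS replicate 3 (adjusted p = 0.076) and without GM-DC unstimulated replicate 1 or 2 (adjusted p = 0.0571 and 0.0866), and without both GM-DC arrays numbered 3 (-0.36, adjusted p = 0.0935).

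Receptors fell in GM-MF as well. Plxnd1 fell by 1.94-fold (-0.96 ± 0.11, adjusted p = 1.85e-05) and Plxnc1 by 1.55-fold (-0.64 ± 0.12, adjusted p = 0.00153), each without overlap. Plxna1 fell to 9.66 ± 0.22 with LPS, against 10.40 ± 0.011 without it (-0.75 ± 0.20, adjusted p = 0.017). The call of Plxna1 was lost without GM-MF LPS replicate 2 (adjusted p = 0.0805) or without GM-MF unstimulated replicate 1 (adjusted p = 0.0515). In GM-DC neither Plxnd1 (-0.04 ± 0.11, adjusted p = 0.913) nor Plxnc1 (-0.17 ± 0.12, adjusted p = 0.535) passed. Plxna1 was at 8.23 ± 0.49 in GM-DC with LPS and 7.64 ± 0.28 without it (0.59 ± 0.20, adjusted p = 0.0885), the groups overlapping through the number 3 array with LPS. With replicate numbers as a block within each cell type Plxna1 passed in GM-DC (0.59, adjusted p = 0.00767), and it also passed without both GM-DC arrays numbered 3 (0.71, adjusted p = 0.00497) or without GM-DC LPS replicate 3 alone (0.87, adjusted p = 0.00221).

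Nrp1 was the one member that passed in opposite directions. It fell in GM-MF with LPS (-1.15 ± 0.25, adjusted p = 0.00434) and rose in GM-DC (1.02 ± 0.25, adjusted p = 0.0171), and in both cell types the stimulated and unstimulated arrays did not overlap. In GM-DC the lowest stimulated array read 4.93 and the highest unstimulated one 4.84, so the groups nearly touched. The unstimulated GM-DC values sat about the array medians, so the size of the rise rests on a low signal. The rise in GM-DC lost its call without GM-DC LPS replicate 1 or 2 (adjusted p = 0.0886 and 0.0924), without GM-DC unstimulated replicate 3 (adjusted p = 0.07) and in a fit on only the 2 groups compared (adjusted p = 0.0577). It was 1.24 without both GM-DC arrays numbered 3 (adjusted p = 0.00102). The mean level of 9 macrophage markers was 5.97, 6.11 and 5.86 in GM-DC with LPS, against 5.83, 5.95 and 5.87 in unstimulated GM-DC, and among them Adgre1 (1.24 ± 0.14) and Mertk (1.00 ± 0.16) rose with LPS while Csf1r fell (-1.62 ± 0.12). Of the 6 endothelial markers Kdr rose in GM-DC (0.60 ± 0.13). In GM-MF Kdr (0.78 ± 0.13) and Cdh5 (0.84 ± 0.14) rose and Vwf fell (-0.68 ± 0.11). The part of these markers in the Nrp1 responses was not tested. Nrp2 passed in neither cell type (0.20 ± 0.20 in GM-DC, adjusted p = 0.703, and -0.07 ± 0.20 in GM-MF, adjusted p = 0.888).

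**Figure D4:**
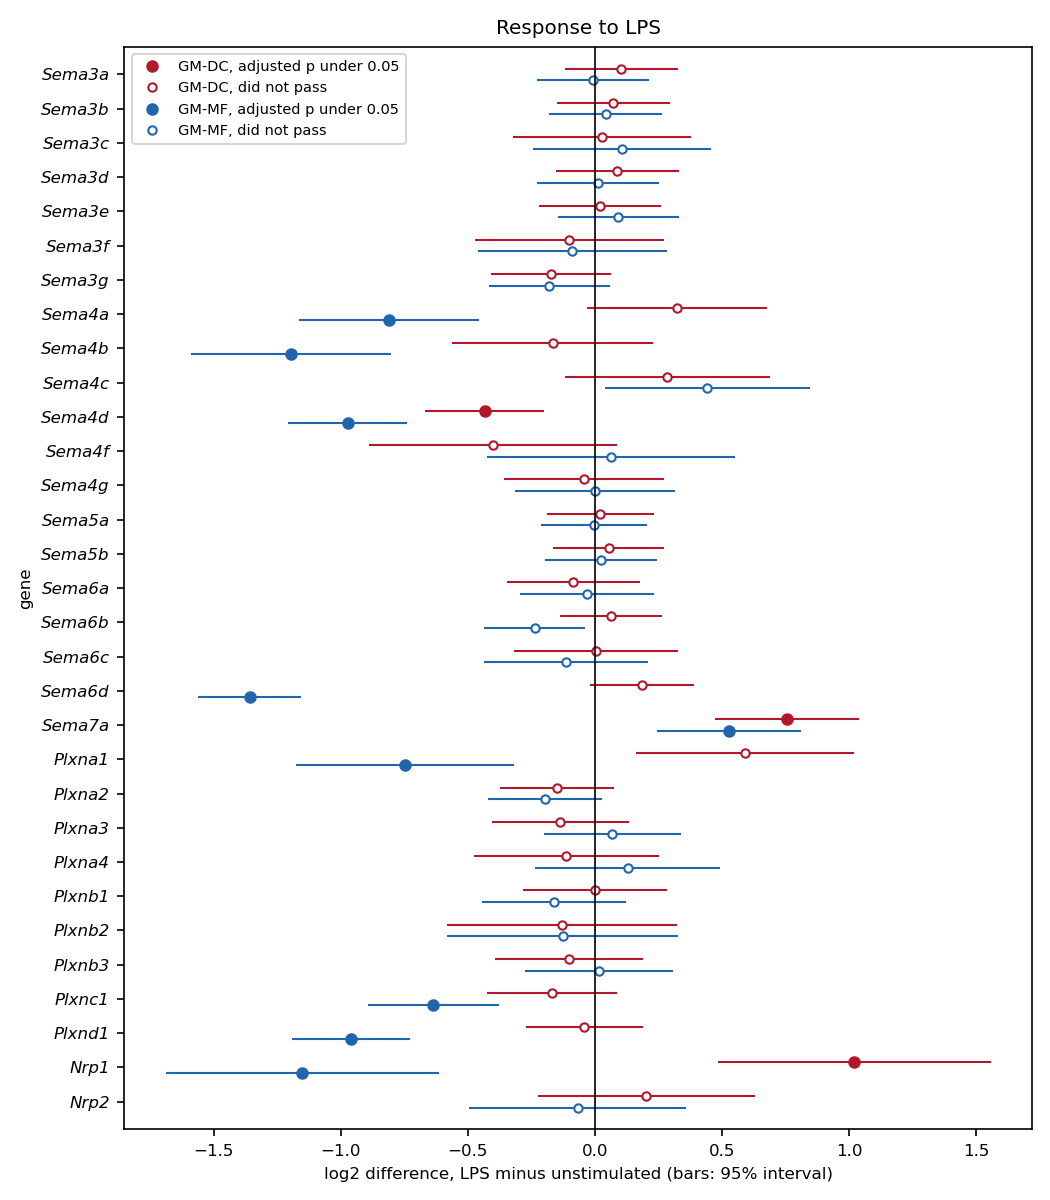
Log2 difference of LPS minus unstimulated for each member in GM-DC (upper of each pair) and GM-MF, with 95% intervals of the limma fit. Filled points passed at an adjusted p under 0.05. The 8 filled points left of 0 in GM-MF include Sema6d at -1.36, and Nrp1 lies at 1.02 for GM-DC and -1.15 for GM-MF.

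The difference of the LPS responses, GM-DC minus GM-MF, was tested directly. It passed for 7 of 31 members (22.6%), against 7.59% of all genes. All 7 were positive, against 4.53% of all genes, and 0 were negative, against 3.06%. At an unadjusted limma p under 0.05 there were 9 positive and 0 negative members, against 11.2% and 7.19% of all genes. At least 2-fold were 5 of the 7, against 3.26% of all genes (1.90% positive and 1.35% negative). A positive value means a larger rise or a smaller fall in GM-DC. They were Nrp1 (2.17 ± 0.36, adjusted p = 0.0012), Sema6d (1.54 ± 0.13, adjusted p = 4.53e-06), Plxna1 (1.34 ± 0.28, adjusted p = 0.00789), Sema4a, Sema4b (1.03 ± 0.26, adjusted p = 0.024), Plxnd1 and Sema4d (0.54 ± 0.15, adjusted p = 0.0465). The call of Sema4b was lost when GM-DC LPS replicate 3, GM-DC unstimulated replicate 1, GM-MF LPS replicate 3 or GM-MF unstimulated replicate 1 or 2 was left out (adjusted p from 0.0532 to 0.0637). That of Sema4d was lost without any 1 of the arrays other than GM-DC LPS replicate 3 and GM-MF LPS replicate 1 (adjusted p from 0.0607 to 0.123). It was also lost after median centring (adjusted p = 0.0802), after cyclic loess (adjusted p = 0.0605) and with the mean of both probe sets (adjusted p = 0.279). Plxnc1 did not pass (0.47 ± 0.17, adjusted p = 0.13) but did with replicate numbers as a block within each cell type (adjusted p = 0.039).

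Other genes of the pathway were read from a list of 72 partners, other neuropilin ligands, proteases and effectors, of which 67 were measured. Without LPS 34 of the 67 passed (50.7%), 10 higher and 24 lower in GM-DC, against 34.2% of all genes (18.0% higher and 16.2% lower). With LPS 37 passed (55.2%), 16 higher and 21 lower, against 36.3% (20.9% higher and 15.4% lower). Lower in GM-DC by the most without LPS were Kdr, a receptor of VEGF-A that pairs with neuropilin-1 (-4.94 ± 0.13), Mmp14, a membrane protease that can shed Sema4d (-3.56 ± 0.20), and Vav1, an exchange factor of Rac (-2.72 ± 0.14). With LPS they were Kdr (-5.12 ± 0.13), Met, a partner of B-type plexins and receptor of hepatocyte growth factor (-2.90 ± 0.11), and Mmp14 (-2.42 ± 0.20). Itga1, the integrin chain that takes part in binding Sema7a, was also lower in GM-DC (-2.34 ± 0.16 without and -2.39 ± 0.16 with LPS), a gene named after its value was seen.

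Higher in GM-DC without LPS by the most were Fyn, a Src-family kinase of plexin signalling (3.78 ± 0.13), Dpysl5, of the collapsin response mediator family (3.02 ± 0.23), and L1cam, an adhesion molecule that associates with neuropilin-1 (2.94 ± 0.12). With LPS the same 3 led, Dpysl5 at 2.78 ± 0.23, L1cam at 2.57 ± 0.12 and Fyn at 2.54 ± 0.13. Without LPS, of 18 other receptors and partners 1 was higher in GM-DC, L1cam, and 6 were lower. Of 5 other neuropilin ligands Vegfc was higher (1.13 ± 0.12), and Tgfb1 (-1.50 ± 0.12), Pgf (-1.50 ± 0.19) and Vegfa (-1.20 ± 0.28) were lower. Of 6 sheddases and proteases 4 were lower, which beside Mmp14 were Adam17 (-2.35 ± 0.13), Furin (-0.92 ± 0.17) and Adam10 (-0.92 ± 0.11). Of 38 effectors 8 were higher and 11 lower. For comparison, 34.2% of all genes passed without LPS, 18.0% higher and 16.2% lower in GM-DC. These lists are short and were not tested against those shares.

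With LPS 14 of the 67 passed in GM-DC (20.9%), 9 higher and 5 lower, against 9.72% of all genes (5.23% higher and 4.49% lower). In GM-MF 23 passed (34.3%), 11 higher and 12 lower, against 17.4% (6.54% higher and 10.8% lower). Those that rose most in GM-DC were Itgav, an integrin alpha chain (1.62 ± 0.17), Rnd3, a relative of the plexin-binding Rnd1 (1.42 ± 0.15), and Cd72, the receptor of Sema4d on B cells (1.19 ± 0.23). In GM-MF they were Rnd1, a GTPase that binds plexins (2.13 ± 0.16), Furin, a protease that processes semaphorins (1.85 ± 0.17), and Rnd3 (1.04 ± 0.15). Mras, of the Ras family, fell most in both, by 2.33-fold in GM-DC (-1.22 ± 0.10) and 6.25-fold in GM-MF (-2.64 ± 0.10). It was followed by Vegfc, a ligand of neuropilin-2 (-0.63 ± 0.12), and Vav1 (-0.48 ± 0.14) in GM-DC, and by Sh3bp1, a Rac-inactivating protein (-1.41 ± 0.09), and Vav1 (-1.28 ± 0.14) in GM-MF. The other 2 of the 5 lower genes in GM-DC were Mical1 (-0.41 ± 0.11) and Rapgef1 (-0.36 ± 0.11). That count was 8 with replicate numbers as a block and 11 with a block within each cell type. It was 3 without GM-DC LPS replicate 1 or 3, without GM-DC unstimulated replicate 1 or 2, without GM-MF LPS replicate 3 and without any 1 of the unstimulated GM-MF arrays. The difference of responses passed for 14 of the 67 (20.9%), 8 positive and 6 negative, against 7.59% of all genes. Among all genes 4.53% were positive and 3.06% negative. Of the pathway genes, the largest positive ones were Mras (1.42 ± 0.14), Sh3bp1 (1.22 ± 0.13) and Mmp14 (1.14 ± 0.28). The largest negative ones were Rnd1 (-1.89 ± 0.22), Fyn (-1.24 ± 0.19) and Vegfc (-1.17 ± 0.17). Their positive count was 4 without GM-DC LPS replicate 1 or 2 and 5 without GM-MF LPS replicate 3.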

How the data were processed

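RNA of 12 samples was measured on 1 array each. The log2 values were deposited by the authors, and the submitters' processing notes name RMA and R 3.0.2. RMA settings and the genome build are not given in the sources used here, and the values, which run from 1.18 to 13.7, were read as base 2. Raw scanner files were not used, so no background call was made.

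Of 35556 probe sets 21789 had 1 gene symbol in the platform annotation, 1621 several and 12146 none. Where a gene had several, the one with the highest mean across the 12 arrays stood for it, giving 19938 genes. All 31 members matched RefSeq symbols of GRCm38.p6, and the 2 probe sets of Sema6b held the same values. Differences were tested with limma 3.58.1 in R 4.3.3: lmFit with 4 group means, contrasts and eBayes, 8 residual degrees of freedom, two-sided, Benjamini-Hochberg over 19938 genes, 5 comparisons, threshold 0.05. A difference is given ± its standard error and a group mean ± the SD of 3 arrays. The precision is limited by 3 arrays per group. The fit was tested on simulated data.

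Members named with every array passed with at least 2-fold in any comparison. The 3 pathway genes with the largest change per direction and comparison were named. Members, lists and motifs were chosen with earlier results of these data known. The labels do not state whether replicate numbers pair the arrays within a cell type. After centring on group means, same-numbered arrays with and without LPS correlated at 0.119 to 0.363 in GM-DC and 0.104 to 0.257 in GM-MF. Differently numbered arrays correlated at -0.25 to 0.16 in GM-DC and -0.22 to 0.03 in GM-MF. The ranges thus overlapped in GM-DC but not in GM-MF. With LPS, 2 of 3 GM-DC arrays and 3 of 3 GM-MF arrays correlated best with their own number. Between cell types the same-numbered arrays ran from -0.17 to 0.16. The main fit used no pairing in any comparison, so its LPS calls leave out any pairing within a cell type. In a limma fit with a block within each cell type, Plxna1 also passed with LPS in GM-DC (adjusted p = 0.00767). Plxnc1 then passed in the difference of responses (adjusted p = 0.039). With that block no LPS call of a member was lost. Alternatives were the mean of probe sets, median centring, cyclic loess, a filter on low values, trended eBayes, fits on the groups compared, replicate blocks and leaving out arrays.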

Additional observations from a re-analysis of the deposited data

Results flagged for a closer look

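The response to LPS differed between GM-DC and GM-MF for 7 of the 31 members, by the limma test of the difference of responses over all 12 arrays. For Nrp1 the difference was 2.17, the response being 1.02 ± 0.25 in GM-DC and -1.15 ± 0.25 in GM-MF. Unstimulated GM-DC values of Nrp1 sat about the array medians, so the size of its rise there rests on a low signal. The call of that rise was lost under 4 of 21 alternatives. For Sema6d the difference was 1.54 (0.18 ± 0.10 in GM-DC and -1.36 ± 0.10 in GM-MF), and for Plxna1 1.34 (0.59 ± 0.20 and -0.75 ± 0.20). For Sema4a it was 1.13 (0.32 ± 0.17 in GM-DC and -0.81 ± 0.17 in GM-MF), for Sema4b 1.03 (-0.17 ± 0.18 and -1.20 ± 0.18) and for Plxnd1 0.92 (-0.04 ± 0.11 and -0.96 ± 0.11). For Sema4d it was 0.54 (-0.43 ± 0.11 in GM-DC and -0.97 ± 0.11 in GM-MF), the closest to the threshold (adjusted p = 0.0465). Groups of 3 arrays are too small to test single arrays as outliers.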

How the results depend on the processing

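Under 21 alternatives 0 called differences of a member changed direction. Of the calls between cell types, 14 of 15 without LPS and 14 of 14 with LPS held under every alternative, the exception being Plxna4. Of the LPS calls 1 of 3 in GM-DC (Sema7a) and 7 of 9 in GM-MF did so, and 5 of 7 differences of responses. Leaving out single arrays gave 1 to 3 members higher and 0 to 1 lower with LPS in GM-DC, and 0 to 2 higher in GM-MF. It gave 3 to 6 pathway genes lower in GM-DC, 521 to 941 genes of the whole table lower in GM-DC, and 4 to 10 pathway genes with a positive difference of responses. A fit on only the groups compared gave 1 member higher and 3 pathway genes lower in GM-DC with LPS. The mean of probe sets gave 0 members lower there, as did leaving out both GM-DC arrays numbered 3, an alternative added after seeing the data. Pathway genes lower in GM-DC numbered 3 after cyclic loess, 8 among genes with a mean above the table median, 8 with the replicate block and 11 with the block within each cell type, also added after seeing the data. The replicate block over all arrays changed the calls of no member in the LPS comparisons. Between the cell types, where same-numbered arrays correlated at -0.17 to 0.16, it brought in Plxnb2 (adjusted p = 0.0134 without and 0.0125 with LPS). The cause of these shifts was not tested. Signals under the array medians, where 11 members lay on all 12 arrays, limit what small differences can be seen.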
